A study of Mus musculus with 25 samples.

Results

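The trophectoderm is the outer epithelium of the mouse blastocyst, and this section follows 10 genes of it, 8 transcription factors and 2 keratins, through cells and embryos without normal activity of Dot1L. The genes were taken by symbol: Tead4, Tfap2c, Cdx2, Gata3, Eomes, Elf5, Gata2, Hand1, Krt8 and Krt18. All 10 were present once among the 35731 genes of the RNA table of mouse embryonic stem cells (mESCs) and once among the 24062 genes of the RNA table of embryos. The genes were matched by name, and the set was drawn up with earlier results of these data known.

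Outer cells of the early embryo keep the Hippo pathway inactive, and Yap1 then joins Tead4 in the nucleus and switches on Cdx2 and Gata3. Inner cells hold Pou5f1 and Nanog, which oppose the trophectoderm programme, and mESCs derive from that inner lineage. Eomes and Elf5 maintain trophoblast stem cells, the later descendants of the trophectoderm, and Krt8 and Krt18 form the first keratin filaments of the embryo. Dot1L places methyl groups on lysine 79 of histone H3 within transcribed genes, giving the di- and trimethyl marks H3K79me2 and H3K79me3.

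The mESCs were of the v6.5 line, either wild type (WT, 3 RNA libraries) or Dot1L knockout (KO, 2 RNA libraries). Chromatin immunoprecipitation (ChIP) of each mark gave 2 WT and 2 KO peak lists from the same line. The embryos had B6D2F1 mothers and Cast/EiJ fathers, were at the 8-cell stage 56 hours after fertilization, and were pooled by 30 to 35. Embryo RNA came from 2 pools given the solvent DMSO and 2 pools given SGC0946, a small-molecule inhibitor of Dot1L. Which part of Dot1l was deleted, how many KO clones were used and the culture conditions are not given in the sources used here. Nothing states that replicates were separate cultures, so p-values measure the spread between these libraries, which may be technical.

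The mESC libraries held 26860527 to 33755064 counts and the embryo libraries 24950199 to 32479590. Dot1l RNA was lower in the KO libraries, at 76.5 ± 7.0 CPM (reads scaled to a common library total; SD, n = 2) against 100.1 ± 3.79 CPM (n = 3) in WT, a level that checks the labels only as far as the deleted part is counted. Of 21887 protein-coding genes, 0.0822% lay under an H3K79me2 peak of a KO list, against 37.6% under peaks of both WT lists, and 0 of the 10 genes did. Markers of mouse ES cells, such as Pou5f1 and Nanog, summed to 2589.8 to 2620 CPM in the WT mESC libraries. Replicates were closer in mESCs than in embryos: the biological coefficient of variation estimated by edgeR was 0.0467 against 0.442.

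In mESCs, 8 of the 10 genes passed the test between KO and WT, 6 of them higher in KO (Tead4, Cdx2, Eomes, Hand1, Krt8, Krt18) and 2 lower (Tfap2c, Gata3). Calls required an adjusted p below 0.05 from edgeR's quasi-likelihood test with Benjamini-Hochberg adjustment over all 19532 tested genes. By that rule 43.9% of all tested genes were called, 22.3% higher and 21.6% lower. The median log2 fold change of the 10 genes was 0.49, against 0.000781 over all tested genes. In all 10 genes the WT and KO libraries did not overlap, which held for 62.5% of tested genes; the KO libraries were higher in 6 (31.8% of tested genes) and lower in 4 (30.7%). At an unadjusted p under 0.05 there were the same 8 genes, against 50.6%, and 4 of the 10 estimates were below 0, against 49.9%. The 10 genes went both ways, in a comparison where a large share of all genes was called. In bulk RNA, a larger share of cells with a gene on and more RNA per cell cannot be told apart.

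**Figure D1:**
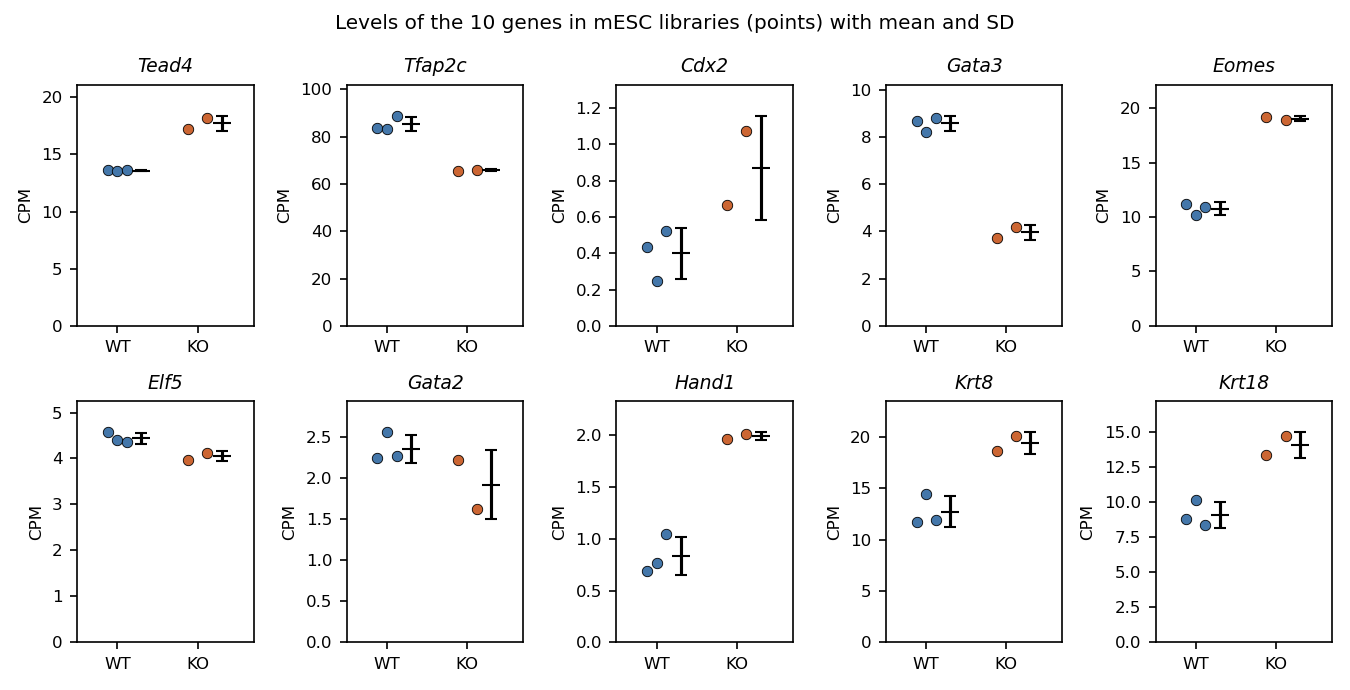
Level of each of the 10 genes in CPM (vertical axes, starting at 0) in the WT and KO mESC libraries; points are libraries, and the bar beside them is the mean with its SD. Gata3 stands at 8.21 to 8.81 CPM in WT and 3.72 to 4.19 in KO, while Eomes stands at 10.1 to 11.2 and 18.9 to 19.2.

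Tead4, the DNA-binding partner of Yap1 that starts the trophectoderm programme, lies at chr6:128227143-128300813 (build GRCm38.p6, as all positions here). Its level was 13.6, 13.5 and 13.6 CPM in the WT libraries and 17.2 and 18.2 CPM in the KO libraries. The 3 WT values were nearly equal and both KO values lay above them. The rise was 1.30-fold (log2 fold change 0.38, SE 0.07; edgeR adjusted p = 0.000713).

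Tfap2c, an AP-2 factor that also acts upstream of Cdx2 and is active in ES cells, lies at chr2:172545678-172558622. It was measured at 83.6, 83.3 and 88.7 CPM in WT and at 65.6 and 66.0 CPM in KO. The KO libraries were the low ones, 1.29-fold below WT, and the log2 fold change was -0.37 (SE 0.05; edgeR adjusted p = 4.49e-05). The 2 genes that act upstream thus changed by similar amounts in opposite directions.

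Cdx2, the homeobox factor that defines the trophectoderm, lies at chr5:147300900-147307249 on the minus strand. The gene was near the limit of detection, with 12, 8 and 15 reads in the WT libraries and 19 and 33 reads in the KO libraries. These equal 0.43, 0.25 and 0.52 CPM in WT and 0.67 and 1.07 CPM in KO. The KO libraries were higher without overlap. They differed from each other by more than the WT libraries did in CPM, but not in proportion to their level. The log2 fold change was 1.14 (95% interval 0.31 to 1.96; edgeR adjusted p = 0.0278). The call was lost without WT replicate 2 (log2 fold change 0.86, adjusted p = 0.0986), without KO replicate 2 (0.74, adjusted p = 0.278) and in DESeq2 (adjusted p = 0.105).

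The 250 bases before the start of Cdx2 are shown because an H3K79me3 peak of WT replicate 1, at 3.27-fold, reached into them. WT replicate 2 had no H3K79me3 peak on Cdx2, and KO replicate 2 had a peak elsewhere on the gene, at 5.41-fold. The window is chr5:147307250-147307499, minus strand, from RefSeq, and the capitals mark the bases under the WT replicate 1 peak.
Cdx2: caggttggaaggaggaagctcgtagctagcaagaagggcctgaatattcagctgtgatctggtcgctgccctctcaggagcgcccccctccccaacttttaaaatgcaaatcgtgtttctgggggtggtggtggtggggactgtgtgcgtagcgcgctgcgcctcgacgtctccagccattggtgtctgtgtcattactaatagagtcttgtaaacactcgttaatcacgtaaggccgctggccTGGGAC
Only the last 6 bases before the start lay under the peak, and most of the window did not. The window held 55.2% G and C, against a median of 52.4% over all 32851 windows of the same length.

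Gata3, a zinc-finger factor that Tead4 activates in parallel with Cdx2, lies at chr2:9857078-9887953. It stood at 8.70, 8.21 and 8.81 CPM in WT and at 3.72 and 4.19 CPM in KO. Its WT mean was 2.16-fold above its KO mean, with a log2 fold change of -1.11 (SE 0.11; edgeR adjusted p = 5.32e-06). Gata3 had the largest fall of the 10 genes, in the opposite direction to Cdx2. Its position overlaps the non-coding genes 4930412O13Rik and 9230102O04Rik, each with at most 5 reads in any mESC library. Eomes, Gata2 and Hand1 overlap the non-coding genes Gm33408, Gm38708 and Gm32915, for which no counts were used here. Whether the counting used strand is not stated, so reads of overlapping genes may not be separated.

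Eomes, a T-box factor of trophoblast stem cells that also acts in early mesoderm and endoderm, lies at chr9:118478186-118486132. Its levels were 11.2, 10.1 and 11.0 CPM in WT and 19.2 and 18.9 CPM in KO. Both KO libraries were clearly above WT and close to each other. The rise was 1.77-fold, which is 0.82 on the log2 scale (SE 0.08; edgeR adjusted p = 1.97e-06).

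Hand1, a basic helix-loop-helix factor needed for trophoblast giant cells and also active in mesoderm, lies at chr11:57828713-57832147. It had 19, 25 and 30 reads in the WT libraries and 56 and 62 reads in the KO libraries, or 0.69, 0.77 and 1.04 CPM against 1.97 and 2.02 CPM. The KO libraries were high and nearly equal. The log2 fold change of 1.25 (SE 0.24; edgeR adjusted p = 0.000851) was the largest rise among the 10 genes, at a low level.

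Elf5 and Gata2 were not called. Elf5, an ETS factor that locks in the trophoblast stem cell state, lies at chr2:103412098-103450989. Its levels were 4.57, 4.40 and 4.35 CPM in WT and 3.97 and 4.13 CPM in KO (log2 fold change -0.13, 95% interval -0.41 to 0.14; edgeR adjusted p = 0.437). Gata2, a zinc-finger factor of trophoblast and blood progenitors, lies at chr6:88193891-88207032. Its levels were 2.25, 2.55 and 2.26 CPM in WT and 2.21 and 1.63 CPM in KO (log2 fold change -0.30, 95% interval -0.72 to 0.12; edgeR adjusted p = 0.234). The KO libraries of both genes lay below WT, by differences that did not pass the test.

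The bases before the first start of Gata2 are shown because an H3K79me3 peak of WT replicate 1 covered their end. WT replicate 2 had no H3K79me3 peak on Gata2. The window is chr6:88193641-88193890, plus strand, from RefSeq, with the bases under the peak in capitals.
Gata2: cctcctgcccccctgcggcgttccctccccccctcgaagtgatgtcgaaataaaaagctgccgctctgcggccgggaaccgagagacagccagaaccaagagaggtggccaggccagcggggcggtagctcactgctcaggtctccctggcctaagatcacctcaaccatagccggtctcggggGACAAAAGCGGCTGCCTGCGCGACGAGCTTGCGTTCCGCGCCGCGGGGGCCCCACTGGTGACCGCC
The peak covered 66 of the 250 bases and went on into the gene. The window held 67.2% G and C.

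Krt8 and Krt18 encode the type II and type I keratins that pair into one filament. They lie 23.9 kb apart on chromosome 15, at chr15:101996711-102004342 (minus strand) and chr15:102028216-102032026 (plus strand), so they are transcribed away from each other. Krt8 was at 11.7, 14.5 and 11.9 CPM in WT and at 18.6 and 20.1 CPM in KO. Krt18 was at 8.80, 10.2 and 8.39 CPM in WT and at 13.4 and 14.7 CPM in KO. In both genes WT replicate 2 was the highest of the WT libraries and KO replicate 2 the higher of the KO libraries.

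The keratins changed by nearly the same amount. Krt8 changed by a log2 fold change of 0.60 (SE 0.09; edgeR adjusted p = 0.000183). Krt18 changed by 0.62 (SE 0.10; edgeR adjusted p = 0.000201). Their promoter windows from RefSeq are shown because the pair moved together; Krt8 is chr15:102004343-102004592 (minus strand) and Krt18 is chr15:102027966-102028215 (plus strand). Capitals mark matches to the TEAD, GATA, CDX2, TFAP2 or T-box letters given below.
Krt8: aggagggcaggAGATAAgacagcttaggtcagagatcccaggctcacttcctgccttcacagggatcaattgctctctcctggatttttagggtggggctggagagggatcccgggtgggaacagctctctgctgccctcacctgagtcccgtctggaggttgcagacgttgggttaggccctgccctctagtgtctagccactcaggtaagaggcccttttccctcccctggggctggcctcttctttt
Krt18: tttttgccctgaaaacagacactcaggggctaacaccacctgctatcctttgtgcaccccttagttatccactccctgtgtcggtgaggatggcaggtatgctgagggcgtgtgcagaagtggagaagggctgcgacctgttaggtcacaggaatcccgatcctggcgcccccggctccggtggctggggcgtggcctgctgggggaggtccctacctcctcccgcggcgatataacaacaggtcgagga
Krt8 held 1 GATA match, 239 bases before its start, and Krt18 held none of these letters. The windows held 58.0% and 60.4% G and C.

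The table of RefSeq promoter windows used here held 7 of the 10 genes, 9 windows in all, since Elf5 and Gata2 have a second start; windows of Tead4, Tfap2c and Hand1 were not used here. Motifs of the trophectoderm factors were searched on both strands. The TEAD letters GGAATG were in 2 of the 9 windows (Elf5, Gata2), against 12.6% of all windows, and the T-box letters GGTGTG in 2 (Gata3, Elf5), against 16.3%. The GATA letters AGATAA were in 1 (Krt8), against 9.99%, the CDX2 letters TTTATG in 1 (Elf5), against 10.8%, and the TFAP2 letters CCTGAGG in 1 (Elf5), against 6.58%. E-box letters CANNTG, bound by factors such as Hand1, were in 5 of the 9, against 66.2%. Matches of different motifs did not overlap, and a match describes letters, not binding. Elf5 held 5 of the 6 motifs over its 2 windows, and Eomes and the first Gata2 window held none.

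**Figure D2:**
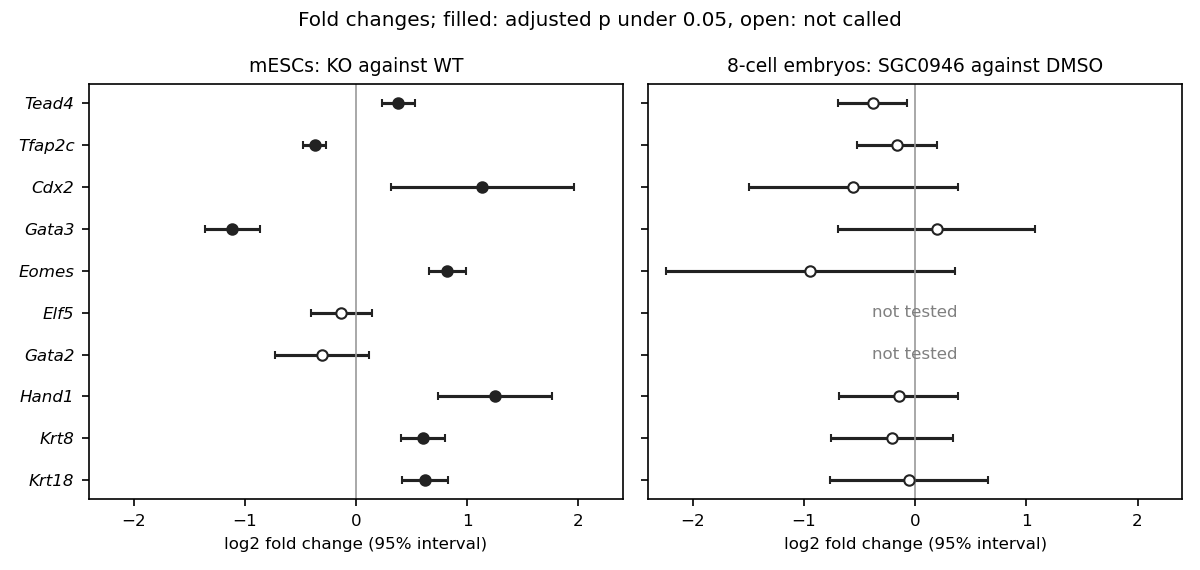
Log2 fold change (horizontal axis) of each gene with its 95% interval, KO against WT in mESCs on the left and SGC0946 against DMSO in embryos on the right; filled points passed an adjusted p of 0.05. On the left 8 points are filled, from -1.11 for Gata3 to 1.25 for Hand1, and on the right none is.

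Genes that work with or against the trophectoderm factors were counted from lists of 57 genes, of which 55 were tested in mESCs. The lists include 4 pluripotency factors that oppose the programme, so the totals mix both kinds. In total 16 rose (22.3% of all tested genes did) and 24 fell (21.6% did), and the median log2 fold change was -0.06, against 0.000781 over all tested genes. The counts of each list below stand against the same shares. Among 17 genes of the Hippo pathway and its nuclear partners and targets, 6 rose and 7 fell (median -0.03). The Yap1 targets Ccn1 (0.51) and Ccn2 (0.46) and the membrane scaffold Amot (0.49) rose, while Amotl2 (-0.61), the Yap1 competitor Vgll4 (-0.46) and the tumour suppressor Nf2 (-0.42) fell (log2 fold changes). Yap1 itself fell from 170.5 to 145.9 CPM, a log2 fold change of -0.22 (edgeR adjusted p = 0.00415).

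Of 17 tested genes of the epithelium and of cavity formation, 6 rose and 8 fell (median -0.10). Krt19, another type I keratin, rose from 8.32 ± 0.397 CPM (SD, n = 3) to 17.5 ± 3.20 CPM (n = 2), a log2 fold change of 1.07. Dab2, an endocytic adaptor, rose by 1.44 and the claudin Cldn7 by 0.59 on the log2 scale. The tight-junction gene Cldn4 (-0.71), the water channel gene Aqp3 (-0.51) and the desmosomal gene Dsp (-0.45) fell. The keratins Krt8, Krt18 and Krt19 thus rose while junction genes went both ways, and Krt7 was not called (-0.10; edgeR adjusted p = 0.461).

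Of 17 tested trophoblast stem cell and placental genes, 4 rose and 6 fell (median 0.10). Ascl2 (0.99), Bmp4 (0.61) and Arid3a (0.52) rose on the log2 scale. Fgfr2, the receptor through which FGF4 maintains trophoblast stem cells, fell from 20.6 ± 1.02 CPM (n = 3) to 5.57 ± 0.578 CPM (n = 2), a log2 fold change of -1.88. Ets2, an ETS factor of trophoblast, also fell (-0.76). Of the 4 pluripotency factors that oppose the programme, 3 fell: Nanog (-1.02), Pou5f1 (-0.21) and Sall4 (-0.19). Nanog dropped from 495.7 to 243.6 CPM, and Sox2 was not called (-0.06; edgeR adjusted p = 0.263). Markers of mouse ES cells, 4 of 7 of them lower, summed to 2042 to 2166 CPM in KO. Yap1, Krt7 and Sox2 were named after their values were seen.

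**Figure D3:**
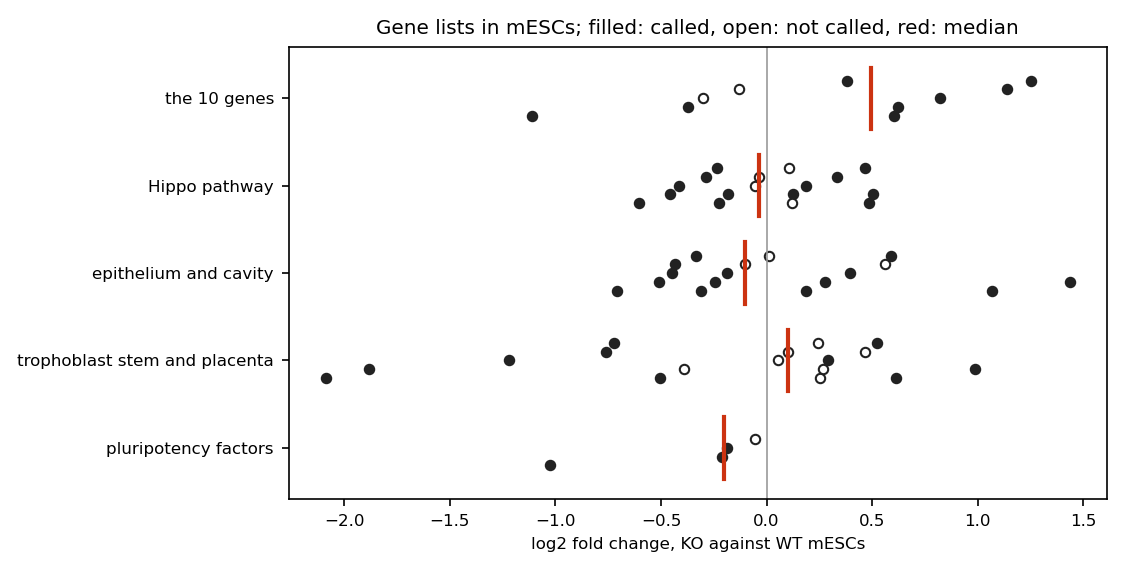
Log2 fold change of KO against WT mESCs (horizontal axis) for the 10 genes and the 4 lists (rows); each point is a gene, filled where called, and the red line is the median of the row. The median of the 10 genes is at 0.49 and those of the lists lie between -0.20 and 0.10.

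Some markers of other cells moved in the same libraries, where 22.3% of all tested genes were called higher and 21.6% lower. Of 8 primitive endoderm markers 5 were called, all higher, and their summed level went from 20.1 to 21.8 CPM in WT to 46.4 to 52.2 CPM in KO; this list shares Dab2 with the epithelial genes. Gata6, a defining factor of that lineage, was at 0.47, 0.77 and 0.77 CPM in WT and at 4.14 and 3.51 CPM in KO. Of 5 mesoderm markers 2 were called higher (T, Kdr), with sums of 6.09 to 7.21 CPM in WT and 8.60 to 10.3 CPM in KO. Of 7 fibroblast markers, for feeder cells, 3 were called higher (Col1a1, Thy1, Postn), with sums of 153 to 195.0 and 195.2 to 243 CPM. Other markers of these lists were tested and not called. Gata4 (-0.13), Sox7 (-0.19), Mixl1 (-0.26), Col3a1 (-0.14) and Dcn (-0.12) had log2 fold changes below 0. Tbx6 (0.03) and Col1a2 (0.29) had values above 0. No marker of these lists was at 0 in all mESC libraries. The part of such cells in the rise of Eomes, Hand1, Cdx2, Krt8 and Krt18 was not tested.

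WT H3K79me2 peaks covered 2 of the 10 genes in both lists, Tead4 and Tfap2c, against 37.6% of protein-coding genes and 47.7% of those tested. At least 1 list covered the same 2, against 42.0%. A peak is a region the authors called as enriched in ChIP reads, counted here where it overlapped the gene by at least 1 bp, and its fold is the authors' own enrichment. Coverage differed with expression level: of the tested protein-coding genes under 5 CPM in WT, 3.87% were covered, and the 4 members at that level (Cdx2, Hand1, Gata2, Elf5) were not. At 8 to 14 CPM 34.2% were covered, and of the 5 members there Tead4 was covered and Krt8, Eomes, Krt18 and Gata3 were not. At 60 to 120 CPM 93.2% were covered, among them Tfap2c. CPM is not corrected for gene length, so these bands only roughly match genes. Length itself was not matched, though a longer gene offers more bases for an overlap of 1 bp. Tead4 spans 73671 bp, against 30876 bp for Gata3, 7947 bp for Eomes, 7632 bp for Krt8 and 3811 bp for Krt18.

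On Tead4, 14 peaks were called in each WT list, and 9 of each list overlapped a peak of the other. They lay 33.1 to 71.1 kb from the lower-coordinate end of the 73.7 kb gene in replicate 2 and 45.8 to 67.9 kb in replicate 1. The strongest were chr6:128293038-128293495 in replicate 1, at 4.62-fold, and chr6:128287447-128287872 in replicate 2, at 5.39-fold. The mark on Tead4 thus stood in many short peaks on the higher-coordinate side of the gene. H3K79me3 had 1 peak there, in replicate 1 only, at 3.43-fold (chr6:128300239-128300548).

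Tfap2c carried 5 H3K79me2 peaks in replicate 1 and 4 in replicate 2, between 3.98 and 9.22 kb of the 12.9 kb gene. The strongest were chr2:172552500-172553027 at 3.8-fold and chr2:172552416-172553132 at 4.22-fold, which overlap. It was the only one of the 10 genes with H3K79me3 in both WT lists, against 9.96% of protein-coding genes and 12.1% of those tested. Such coverage was 18.5% at 60 to 120 CPM, 4.89% at 8 to 14 CPM and 3.73% under 5 CPM. Replicate 1 had 5 H3K79me3 peaks, up to 5.24-fold (chr2:172549615-172550153), and replicate 2 had 1, at 3.85-fold (chr2:172549905-172550173). The H3K79me3 peaks stood in the same part of the gene as the H3K79me2 peaks.

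With Tead4 and Tfap2c, 4 of the 10 genes had H3K79me3 in at least 1 WT list, against 24.3% of protein-coding genes. Cdx2 and Gata2 had theirs in WT replicate 1 alone. On Cdx2 they were chr5:147306266-147306790, at 4.80-fold, and a second of 3.27-fold that reached 6 bases past the start, into the promoter window shown above. KO replicate 2 also had a peak on Cdx2, chr5:147306442-147306711, at 5.41-fold, inside the span of the first WT peak. A called H3K79me3 region in at least 1 KO list occurred for 0.914% of protein-coding genes. The Gata2 peak, chr6:88193825-88194013, was 3.87-fold and spanned the start. The replicate 1 list held 19800 peaks and that of replicate 2 held 7338, so absence from replicate 2 is a weaker observation than presence.

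The 6 remaining genes (Eomes, Gata3, Elf5, Hand1, Krt8, Krt18) were under no peak of either mark in any list. The nearest WT H3K79me2 peaks were 20.3 and 20.6 kb from Eomes, 22.0 and 22.2 kb from Hand1, and 42.0 and 42.2 kb from Krt18 in the 2 lists. They were 69.7 and 69.8 kb from Krt8 and 59.5 and 55.5 kb from Gata3. For Elf5 the lists differed, at 289 and 31.0 kb. Of the 8 genes called in KO mESCs, 6 were without H3K79me2 in both WT lists: 5 that rose and Gata3, which fell. The 2 covered genes went in opposite directions, Tead4 higher and Tfap2c lower. Of all tested protein-coding genes 47.7% were covered, with 34.2% at 8 to 14 CPM and 3.87% under 5 CPM, the levels of the 6 genes. Coverage among all called genes was not counted, so the 6 of 8 is not a result about called genes. Among the listed genes, both WT lists covered 13 of 17 Hippo pathway genes, 6 of 18 epithelial genes, 5 of 18 trophoblast genes and 4 of 4 pluripotency factors, against 37.6% of protein-coding genes. These lists differ in expression level, with which coverage differed.

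**Figure D4:**
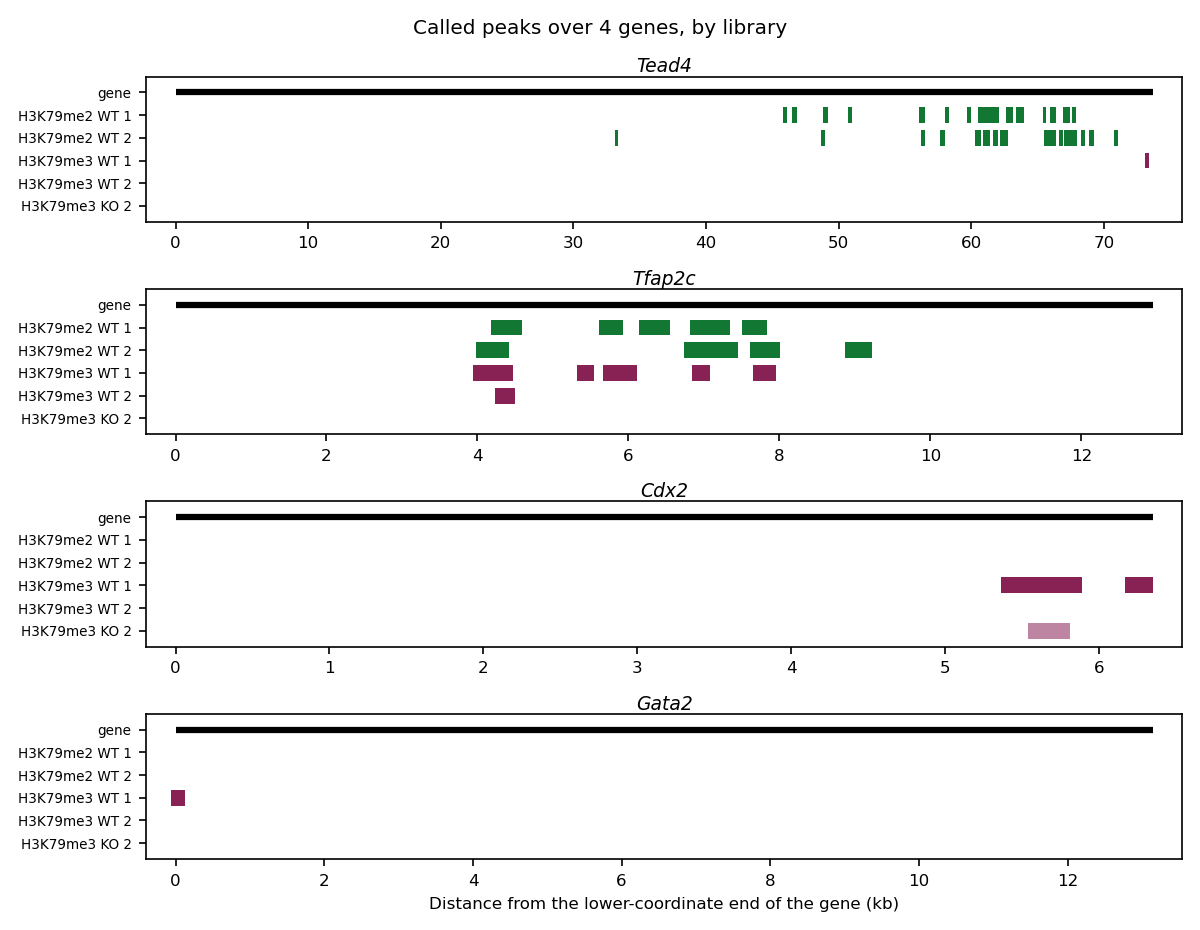
Called peaks over Tead4, Tfap2c, Cdx2 and Gata2 (panels) against the distance from the lower-coordinate end of the gene in kb (horizontal axis); rows are libraries, bars are peaks to scale, and the black line is the gene. H3K79me2 is called in both WT lists on Tead4 and Tfap2c only, and the Cdx2 peak of KO replicate 2 lies within the span of the WT replicate 1 peak.

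In 8-cell embryos, which precede the formed trophectoderm, none of the 10 genes was called between SGC0946 and DMSO. Of the 8 genes tested 0 passed, as did 0 of all 14351 tested genes (0%) in edgeR; DESeq2 called 126 genes and none of the 10. At an unadjusted p under 0.05 there was 1 of the 8, Tead4, against 8.15% of all tested genes. The median log2 fold change of the 8 was -0.18, against 0.0145 over all tested genes. In 7 of the 8 the estimate was below 0, against 48.6% of tested genes. The pools of the 2 treatments overlapped in 7 of the 8, and over all tested genes they were apart for 39.2%.

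**Figure D5:**
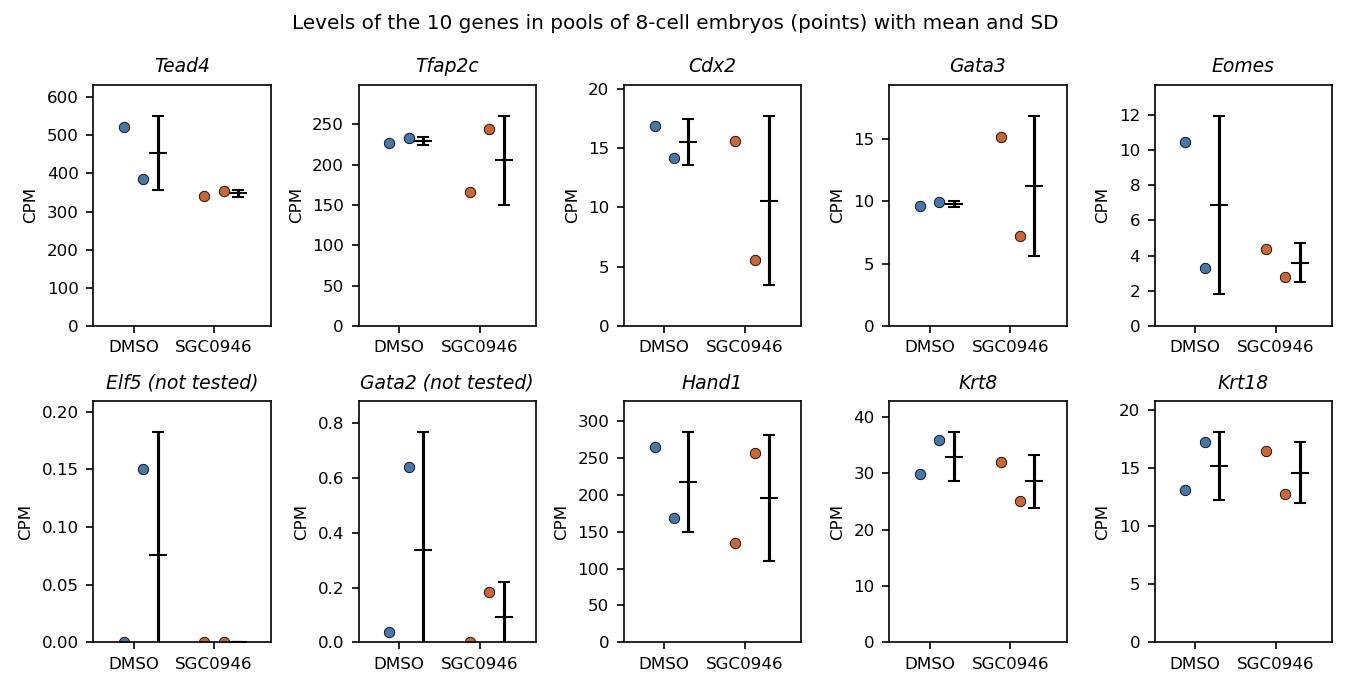
Level of each of the 10 genes in CPM (vertical axes, starting at 0) in the DMSO and SGC0946 pools of 8-cell embryos; points are pools, and the bar is the mean with its SD, which is cropped at 0 for Elf5 and Gata2. The pools are apart for Tead4, at 384 to 522 CPM with DMSO and 341 to 354 CPM with SGC0946, and overlap for the other 7 tested genes.

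Tead4 was measured at 522 and 384 CPM in the DMSO pools and at 341 and 354 CPM in the SGC0946 pools. Both treated pools were lower, and the gap to DMSO replicate 2 was smaller than the gap between the DMSO pools. The log2 fold change was -0.38 (95% interval -0.69 to -0.07), with an unadjusted p of 0.0191 and an adjusted p of 0.481 in edgeR. Pools without overlap were found for 39.2% of tested genes, 20.1% higher and 19.2% lower with SGC0946. Tfap2c was at 226 and 233 CPM with DMSO and 167 and 244 CPM with SGC0946, a log2 fold change of -0.16 (edgeR adjusted p = 0.882).

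Cdx2 was at 16.9 and 14.1 CPM with DMSO and at 15.6 and 5.54 CPM with SGC0946. Replicate 2 of the inhibitor was the low pool, and without it the log2 fold change went from -0.55 to 0.013. Gata3 was at 9.61 and 9.99 CPM with DMSO and at 15.2 and 7.24 CPM with SGC0946, so the treated pools lay on both sides of the controls (log2 fold change 0.19, 95% interval -0.69 to 1.08; edgeR adjusted p = 0.963). The overlapping gene 4930412O13Rik had 20 and 1 reads with DMSO and 43 and 7 with SGC0946, most in the pool where Gata3 was highest, and its part in the Gata3 counts was not tested.

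Eomes was at 10.5 and 3.32 CPM with DMSO and at 4.38 and 2.80 CPM with SGC0946. DMSO replicate 1 was the high pool, and without it the log2 fold change went from -0.94 to 0.11. Hand1 was at 264 and 169 CPM with DMSO and at 135 and 256 CPM with SGC0946, with the pools of both treatments spread widely. Its log2 fold change was -0.15 (edgeR adjusted p = 0.954). Without inhibitor replicate 2 it was -0.68 with an adjusted p of 0.0290, and without inhibitor replicate 1 it was 0.25.

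Elf5 and Gata2 were too low to test. Elf5 had 4 reads in DMSO replicate 2 and 0 in the other 3 pools, where a count of 0 allows up to 3 reads. Gata2 had 1 and 17 reads with DMSO and 0 and 6 with SGC0946. The highest of these counts, for both genes, was in DMSO replicate 2.

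Krt8 was at 29.9 and 36.0 CPM with DMSO and at 31.9 and 25.2 CPM with SGC0946, a log2 fold change of -0.21 (95% interval -0.75 to 0.34; edgeR adjusted p = 0.909). Krt18 was at 13.1 and 17.2 CPM with DMSO and at 16.5 and 12.7 CPM with SGC0946, a log2 fold change of -0.06 (95% interval -0.77 to 0.65; edgeR adjusted p = 0.994). The pools of the 2 treatments overlapped for both keratins, and each highest and lowest pool differed by less than 1.5-fold.

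Set side by side, levels of some members were far apart in the cell sources. Hand1 was at 0.69 to 1.04 CPM in WT mESCs and at 169 to 264 CPM in DMSO pools, and Tead4 at 13.5 to 13.6 and 384 to 522 CPM. Elf5 went the other way, at 4.35 to 4.57 CPM in WT mESCs and at most 0.151 CPM in DMSO pools. The tables come from different library kits and counting and were scaled separately, and no comparison between them was fitted.

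Of the listed genes 50 were tested in embryos and 0 were called; 6 had an unadjusted p under 0.05, against 8.15% of all tested genes. The lowest p values among Hippo genes were those of Ccn2 (2.19, edgeR adjusted p = 0.388) and Ccn1 (0.45, adjusted p = 0.749), as log2 fold changes. The treated pools differed for Ccn2, at 12.3 ± 13.1 CPM (SD, n = 2) against 2.68 ± 0.431 CPM (n = 2) with DMSO. Gcm1, a factor of the placental labyrinth, was at 11.2 ± 2.42 CPM with DMSO and 24.9 ± 2.93 CPM with SGC0946 (n = 2 each; log2 fold change 1.16, edgeR adjusted p = 0.336). Fgfr2 (-0.43, edgeR adjusted p = 0.512) and Cldn4 (-0.30, adjusted p = 0.637) were lower without passing. Pou5f1 was at 708 ± 11.7 CPM with DMSO and 503 ± 63.1 CPM with SGC0946 (log2 fold change -0.49, edgeR adjusted p = 0.289), and Sall4 changed by -0.40 (adjusted p = 0.385). Markers of mouse ES cells summed to 2128 to 2314 CPM with DMSO and 1517 to 1868 CPM with SGC0946, and none of them was called.

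Of markers of other cells in the embryo pools, those of cumulus cells summed to 0.395 to 1.72 CPM and those of fibroblasts to 0.534 to 2.86 CPM over all 4 pools, with 2 of 5 and 3 of 7 markers at 0 in every pool. Oocyte markers summed to 61.2 to 70.0 CPM with DMSO and 57.4 to 75.0 CPM with SGC0946. Primitive endoderm markers, 1 of 8 of them at 0 in every pool, summed to 414 to 438 CPM with DMSO and 379 to 418 CPM with SGC0946. Most of that sum was Gata6 and Gata4, with mean levels of 286 and 76.6 CPM with DMSO. Dab2, Cubn and Pdgfra followed at means of 37.2 CPM or less with DMSO, and Sox17, Sox7 and Foxa2 at 0.019 CPM or less. Mesoderm markers, 1 of 5 of them at 0 in every pool, summed to 10.4 to 10.9 and 15.3 to 19.6 CPM, so the treated pools were higher without overlap. Mean levels went from 1.58 to 4.54 CPM for Kdr and from 2.59 to 6.63 CPM for Tbx6. Mixl1 was at 6.48 CPM with DMSO and 6.24 CPM with SGC0946. Pools were apart in the higher direction for 20.1% of tested genes. No marker of these lists was called. Levels of such markers in pools of 8-cell embryos do not by themselves show that other cells were present. The part of any other cells in the values of the 10 genes was not tested.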

How the data were processed

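The 25 libraries of the series are 8 ChIP, 8 input and 9 RNA libraries; the inputs were not used here. The deposited mESC table holds estimated counts (expected counts) per gene, about 40% of values not whole, which were rounded. The deposited embryo table holds whole read counts. Per the submitters' processing notes, Bowtie2, MACS2, STAR, HTSeq and kallisto and the build mm10 were used; versions, parameters and strand settings are not given in the sources used here. The deposited peak lists, 1 per library, give a score, a fold enrichment (ratio), and −log10 p and −log10 q values per peak, all the authors'. Genes without a symbol held at most 0.0163% of mESC counts.

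Counts were tested with edgeR 4.0.16 in R 4.3.3 (filterByExpr, TMM scaling, quasi-likelihood F test, Benjamini-Hochberg adjustment over all tested genes), each table alone; CPM uses TMM-scaled totals. Intervals are 95% intervals of the fit. Peaks were placed on RefSeq gene bodies of GRCm38.p6 with Python 3.11.15 and pandas 2.3.3. The RNA test was run on simulated counts with the same variation for all genes. What share of true changes it would find in the embryo pools is not reported here. Sequences are RefSeq windows of 250 bases before a start.

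The 10 genes and all lists were chosen with earlier results of these data known. All 10 genes are named; from each list, up to 3 risen and 3 fallen genes by size of change, with a mean of at least 1 CPM, or, if no gene was called, the 2 of lowest p; of these genes, 2 are not reported here. Alternatives were other scalings and filters, DESeq2 1.42.0, limma-voom of limma 3.58.1, testing against a log2 change of 0.5, a replicate block, leaving out each library, and other peak overlaps.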

Additional observations from a re-analysis of the deposited data

Results flagged for a closer look

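Tead4 had estimates of opposite sign in the 2 cell sources, without overlap of groups in either. Groups did not overlap for 62.5% of tested genes in mESCs (31.8% higher) and for 39.2% in embryos (19.2% lower). How many of all genes were apart in both with opposite sign was not counted. Its log2 fold change was 0.38 in KO against WT mESCs, where both KO libraries (17.2 and 18.2 CPM) lay above all 3 WT libraries (13.5 to 13.6 CPM). It was -0.38 in SGC0946 against DMSO embryos, where both treated pools (341 and 354 CPM) lay below both controls (384 and 522 CPM). The change in mESCs passed the test (edgeR adjusted p = 0.000713) and that in embryos did not (edgeR adjusted p = 0.481). Without DMSO replicate 1 the embryo value was -0.15, and without DMSO replicate 2 it was -0.59. The difference between the changes was not tested, since the tables come from different kits and counting. Opposite signs alone were not particular to Tead4. Cdx2, Gata3, Eomes, Hand1, Krt8 and Krt18 also had estimates of opposite sign in the cell sources, but their embryo pools overlapped. Tfap2c had a negative estimate in both.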

How the results depend on the processing

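In mESCs, 121 of 129 alternative estimates of single members kept their direction and their side of the threshold, and 8 kept the direction but lost the call: 4 of Cdx2, and those of Tead4, Tfap2c, Krt8 and Krt18 under the test against a log2 fold change of 0.5. That test left 3 members (Gata3, Eomes, Hand1) and 9 of the listed genes called, against 8 and 40, and 1885 of all genes against 8572. With at least 10 counts in every library Cdx2 was not tested. Leaving out 1 library gave 7 to 8 members and 38 to 41 listed genes. Upper-quartile scaling made 63.5% of all calls higher, against 50.8%, with the same 6 members higher and 2 lower.

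In embryos, DESeq2 called 2 listed genes (Gcm1, Pou5f1), limma-voom 1 (Pou5f1) and the fit without a filter 2 (Ccn2, Pou5f1), against 0; leaving out 1 pool gave 0 to 4. Members called were 0 to 1 without 1 pool, the 1 being Hand1 without inhibitor replicate 2. Estimates that changed sign did so only when a pool was left out, and ranged from -0.46 to 0.092 for Tfap2c, -1.48 to 0.013 for Cdx2, -0.43 to 0.63 for Gata3, -1.54 to 0.11 for Eomes, -0.68 to 0.25 for Hand1 and -0.25 to 0.16 for Krt18. Over all genes edgeR called 0, DESeq2 126, limma-voom 55, no filter 111, at least 10 counts 23, and 4 to 365 without 1 pool. A group with 1 library left is assumed to vary like the other group. The causes were not tested.

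Whether equal replicate numbers mark a shared batch is not stated. The correlation of same-numbered deviations was -0.01 in mESCs and 0.05 in embryos, and a value near 0 cannot exclude shared batches. With a replicate block, 8 members and 8160 of all genes were called in mESCs; in embryos 0 members, 3 listed genes (Gcm1, Zfp36l1, Pou5f1) and 171 of all genes.

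Members with H3K79me2 in both WT lists were 2 under every alternative run. Those with H3K79me3 were 1 to 4 when 1 list was left out.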

Other observations

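Plac1, a placental gene below the level at which listed genes were named, had the lowest estimate of the lists in KO mESCs, with a log2 fold change of -2.09 at 0.513 CPM in WT and 0.119 CPM in KO (edgeR adjusted p = 0.00445); it was chosen after its value was seen. Wwtr1, the paralog of Yap1, was higher in KO mESCs where Yap1 was lower, going from 39.0 to 49.2 CPM (log2 fold change 0.33, edgeR adjusted p = 0.000495). Krt19 in embryos had 0 and 15 reads with DMSO and 8 and 6 with SGC0946. Wwtr1 and the embryo counts of Krt19 were not selected by the rule for naming listed genes and were not set in advance.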
